A study of Mus musculus with 8 samples.

Results

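Among the genes whose counts set transplanted expanded alveolar macrophages apart from transplanted cells that were never cultured, 8 are described here as candidate remnants of culture: Arap2, Myo1d, Cd93, Gpd1, Itpr3, Syt11, Fam117a and Lhx2. They are 8 of 37310 genes in the count table and 8 of the 14537 genes with enough counts to be tested. They were selected on their measured difference between transplanted groups: the level in the transplanted expanded cells differed from that in the uncultured transplanted cells. That difference is therefore given below as a description and not as a result. Whether the expanded cells lie towards the cultured level was asked over all 8 libraries.

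Alveolar macrophages, phagocytes that live in the air sacs of the lung, were measured by bulk RNA sequencing in 4 groups of 2 libraries. Cultured cells (exAM) came from 8-week-old wild-type C57BL/6 mice, were grown for 2 months and were not sorted. Transplanted expanded cells (texAM) were such cells given into the airways of 8-week-old C57Bl/6-Ly5.1 mice and recovered 4 months later, while transplanted cells (tAM) came from C57BL/6 mice, also 8 weeks old, were not cultured and were likewise recovered after 4 months. Host cells (HostAM) were those of the C57Bl/6-Ly5.1 mice. The lung groups were sorted from whole lung by SiglecF and CD11c, with CD45.2 marking transferred and CD45.1 marking host cells. Whether the host cells came from mice given macrophages or PBS, and for how long, is not stated for these libraries. Each library is a pool of 3 mice or cultures, and nothing says how the 2 pools of a group were kept apart, so p-values measure the spread between pools only. Strain, sorting and culture all differ between exAM and HostAM and cannot be told apart in that comparison. Strain also differs between either transplanted group and HostAM, and cannot be told apart from transfer there.

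Macrophages of the lung keep their programme through signals of the airspace, among them GM-CSF and TGF-beta, and change it when they are moved to a dish. The 8 genes have no common pathway. Arap2 and Myo1d act at the membrane and the actin cortex, Cd93 is a surface receptor, Itpr3 releases calcium, Syt11 acts in vesicle traffic, Gpd1 is an enzyme of glycerol metabolism and Lhx2 is a transcription factor.

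Total counts per library ran from 6546272 to 9154128. The Y-linked genes Ddx3y, Eif2s3y and Kdm5d had 0 counts in every lung library and were counted in both exAM libraries, so the sex of the mice also cannot be told apart from culture when exAM is set against a lung group. Xist, transcribed from an inactive X, was counted in every library. It was at 801 and 1058 CPM in exAM and 1329 to 1759 CPM in the lung libraries, so exAM is not read as all male. The sex make-up of the exAM pools was not tested. Each of the 19 alveolar macrophage markers found in the table had counts in each lung group, and in exAM Epcam had 0 counts while the other 18 were counted. The 8 genes lie on autosomes, and none lies on chromosome 1, which carries Ptprc, the gene of the CD45 alleles used for sorting. The part of sex or strain in their levels was not tested.

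Promoter sequence is shown for Arap2 and Itpr3, the pair in which texAM came closest to the culture level among the members that changed between exAM and HostAM. RefSeq's promoter table for GRCm38.p6 held 5 of the 8 genes. It had no entry for Myo1d, Cd93 or Gpd1. The windows below are the 250 bases before the annotated start, 5′ to 3′ on the strand of the gene, chr5:62766178-62766427 (minus strand) for Arap2 and chr17:27057054-27057303 (plus strand) for Itpr3. Capitals mark a match to the AP-1 motif TGANTCA in Arap2 and to the E-box CACGTG in Itpr3.
Arap2: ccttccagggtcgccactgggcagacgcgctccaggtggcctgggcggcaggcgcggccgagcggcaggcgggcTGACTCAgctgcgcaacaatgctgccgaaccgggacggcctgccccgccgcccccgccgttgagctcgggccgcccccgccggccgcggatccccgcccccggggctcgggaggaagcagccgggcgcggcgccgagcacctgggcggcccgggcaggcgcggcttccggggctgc
Itpr3: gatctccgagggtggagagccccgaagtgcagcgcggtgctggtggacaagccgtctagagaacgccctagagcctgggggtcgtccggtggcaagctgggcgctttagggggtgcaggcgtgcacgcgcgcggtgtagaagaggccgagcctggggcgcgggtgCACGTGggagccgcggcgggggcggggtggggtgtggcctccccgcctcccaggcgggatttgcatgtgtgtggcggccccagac
On both strands, TGANTCA was found in 6.75% and CACGTG in 6.02% of 32851 RefSeq windows of this length. The PU.1 letters GAGGAAGT (2.44% of windows) and the homeodomain letters TAATTA (4.84%) had no match in the 6 windows of the 5 genes, which says only that these letters are not in them.

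The values that chose the genes came from texAM against tAM. In edgeR's quasi-likelihood test only 1 gene of 14537 (0.00688%) was called there at a Benjamini-Hochberg adjusted p under 0.05, and that gene was Arap2. Its call was lost under 7 of 16 alternatives: the fit of the 4 libraries alone, the replicate number as a block, and leaving out tAM replicate 1 or 2, texAM replicate 1, or exAM replicate 1 or 2. The other 7 members did not pass, and by p-value the 8 held ranks 1 (Arap2), 2 (Lhx2), 5 (Gpd1), 7 (Myo1d), 8 (Itpr3), 9 (Syt11), 10 (Fam117a) and 12 (Cd93). The fitted difference of texAM from tAM was 8.76-fold for Arap2, 7.85-fold for Fam117a, 3.66-fold for Myo1d, 3.65-fold for Itpr3, 2.92-fold for Syt11 and 2.06-fold for Cd93, all higher in texAM. Gpd1 stood 2.50-fold and Lhx2 9.38-fold lower. None of this is used as support below. Tests of texAM or tAM against another group reuse libraries that entered the choice, and their p-values are not independent of it.

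Across the 8 genes, exAM against HostAM is the comparison whose groups have no library in common with the choice of members. Its spread was still estimated over all 8 libraries, so its standard errors and p-values are not fully independent of the choice. There 6 of 8 members were called, 5 higher and 1 lower in exAM, where 44.1% of all tested genes were called, 20.9% higher and 23.3% lower. All 6 calls were kept under each of 16 alternatives. Of the 6, Arap2, Myo1d, Cd93, Itpr3 and Gpd1 went the same way as texAM from tAM, and Lhx2 went the opposite way. Syt11 and Fam117a were not called under any of the 16. As a yardstick chosen after the values were seen, 1139 tested genes had an unadjusted p under 0.05 in texAM against tAM. Of these, 396 (34.8%) were called the same way in exAM against HostAM, 263 (23.1%) the opposite way and 480 (42.1%) were not called, and the 396 made up 6.17% of the 6417 genes called in exAM against HostAM.

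**Figure D1:**
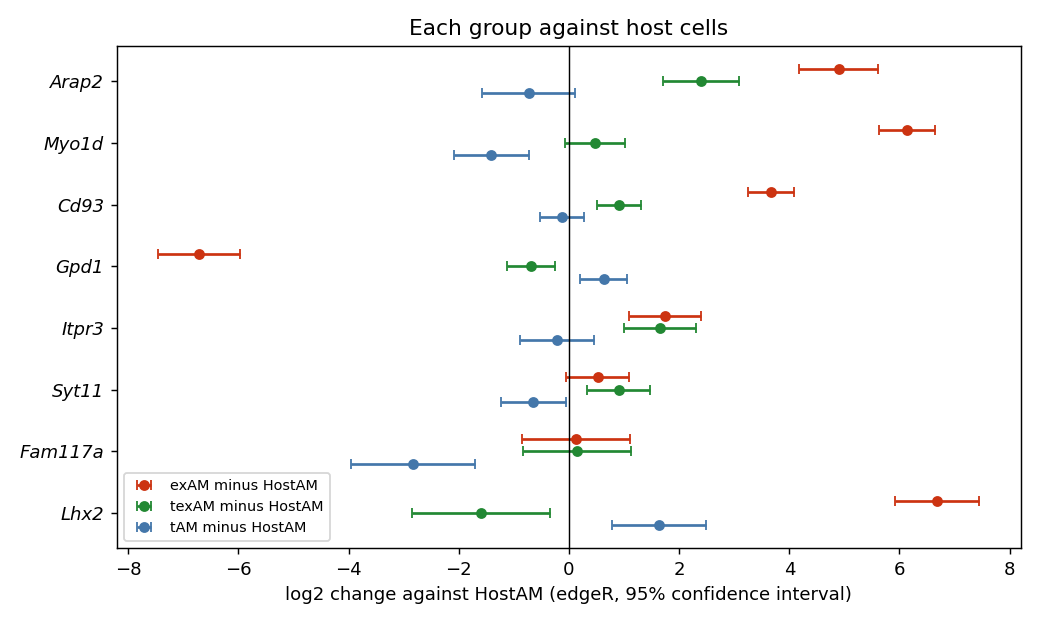
Log2 change of exAM, texAM and tAM against HostAM for the 8 genes (edgeR estimates, bars are 95% confidence intervals, 0 is the HostAM level). The texAM interval lies apart from both 0 and the exAM interval for Arap2, Cd93 and Gpd1, and takes in 0 for Myo1d and Fam117a. It overlaps that of exAM for Itpr3, Syt11 and Fam117a, and for Syt11 and Fam117a the exAM interval itself takes in 0. For Lhx2 the texAM interval is on the other side of 0 from exAM.

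**Figure D2:**
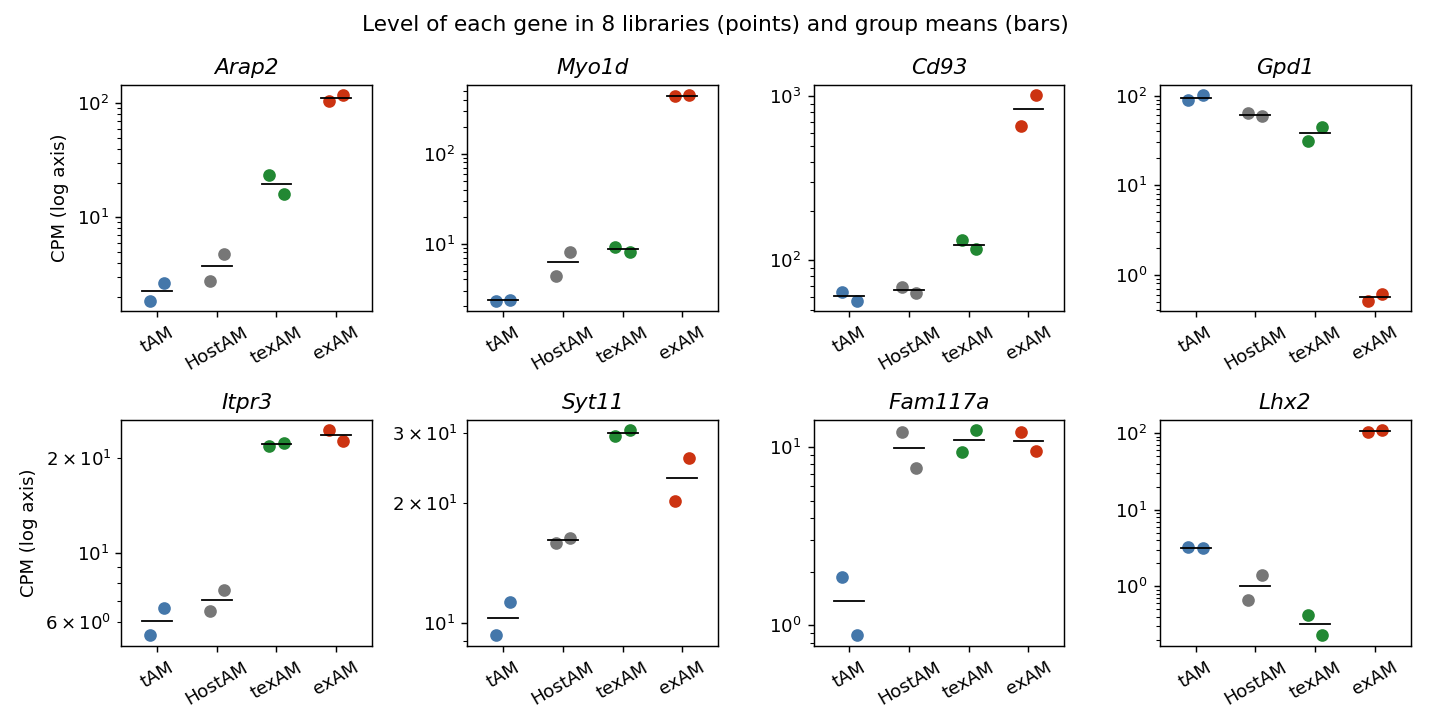
Level of the 8 genes in CPM (counts scaled to library size, log axis) in each library, with points for libraries and bars for the mean of the 2 libraries of a group. The 2 texAM libraries lie between the other lung groups and exAM for Arap2, Cd93 and Gpd1, overlap HostAM for Myo1d, lie near exAM for Itpr3, above exAM for Syt11, among HostAM and exAM for Fam117a and below every other group for Lhx2.

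Arap2 encodes a phosphoinositide-binding GTPase-activating protein for Arf proteins (ENSMUSG00000037999, GRCm38 chromosome 5, 62602445 to 62766159, minus strand). In CPM, the count scaled to library size, it stood at 1.86 and 2.63 in tAM, 2.76 and 4.72 in HostAM, 23.4 and 16.0 in texAM, and 105 and 118 in exAM. The texAM libraries lay above all 4 libraries of the other lung groups and below both exAM libraries. exAM was 29.8-fold higher than HostAM (log2 change 4.90 ± 0.32 SE, edgeR adjusted p = 2.23e-06). The groups of that comparison share no library with the one that chose the gene, but its spread estimate does. texAM was 5.27-fold higher than HostAM (adjusted p = 0.0179) and 5.65-fold lower than exAM (adjusted p = 6.35e-05). The call against HostAM was lost in a fit of the 4 libraries alone (adjusted p = 0.0876), without texAM replicate 1 (adjusted p = 0.0934) and without HostAM replicate 1 (adjusted p = 0.0704). Over 16 alternatives the adjusted p ranged from 1.18e-11 to 0.0934.

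Myo1d, a single-headed myosin that links membranes to actin (ENSMUSG00000035441, chromosome 11, 80482126 to 80780025, minus strand), was far higher in exAM than in any lung group. Its level was 2.32 and 2.38 CPM in tAM, 4.41 and 8.17 CPM in HostAM, 9.19 and 8.10 CPM in texAM, and 434 and 448 CPM in exAM. The texAM and HostAM libraries overlapped, and tAM was the lowest group. exAM was 70.2-fold higher than HostAM (95% interval 49.5 to 99.7, adjusted p = 6.75e-08), and texAM was 50.9-fold lower than exAM (adjusted p = 9.36e-08). Against HostAM texAM was 1.38-fold higher, with an interval of 0.946 to 2.01 and an adjusted p of 0.463.

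Cd93 encodes a transmembrane receptor with a C-type lectin-like domain, found on myeloid and endothelial cells (ENSMUSG00000027435, chromosome 2, 148436640 to 148443563, minus strand). It stood at 64.3 and 56.8 CPM in tAM, 69.1 and 63.3 CPM in HostAM, 132 and 117 CPM in texAM, and 661 and 1016 CPM in exAM. The libraries of tAM and HostAM overlapped, and both texAM libraries were higher than either and lower than exAM. exAM was 12.7-fold higher than HostAM (log2 change 3.66 ± 0.19 SE, adjusted p = 4.33e-07) and texAM 6.73-fold lower than exAM (adjusted p = 2.21e-06). The difference of texAM from HostAM, 1.88-fold (interval 1.43 to 2.48), did not pass in edgeR (adjusted p = 0.0769) and passed under 5 of 16 alternatives, over which the adjusted p ran from 1.50e-11 to 0.381. Those 5 were no filter, a minimum of 50 counts, the DESeq2 Wald test and leaving out either exAM library.

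Gpd1, the cytosolic glycerol 3-phosphate dehydrogenase that reduces dihydroxyacetone phosphate (ENSMUSG00000023019, chromosome 15, 99717515 to 99725005, plus strand), was the member called lower in exAM than in HostAM. It stood at 88.9 and 101 CPM in tAM, 63.5 and 59.5 CPM in HostAM, 31.5 and 44.6 CPM in texAM, and 0.515 and 0.618 CPM in exAM, the last from 3 and 4 counts. The texAM libraries were below all 4 other lung libraries and far above exAM. exAM was 105-fold lower than HostAM (log2 change -6.72 ± 0.34 SE, adjusted p = 3.64e-07). texAM was 65.2-fold higher than exAM (adjusted p = 8.05e-07) and 1.62-fold lower than HostAM (adjusted p = 0.171, interval of the texAM to HostAM ratio 0.457 to 0.837), which did not pass.

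Itpr3 encodes a receptor for inositol trisphosphate that lets calcium out of the endoplasmic reticulum (ENSMUSG00000042644, chromosome 17, 27057304 to 27122223, plus strand). Its level was 5.46 and 6.65 CPM in tAM, 6.50 and 7.60 CPM in HostAM, 21.8 and 22.4 CPM in texAM, and 24.5 and 22.7 CPM in exAM. Here texAM sat just under exAM, apart from the overlapping libraries of tAM and HostAM. exAM was 3.34-fold higher than HostAM (interval 2.12 to 5.27, adjusted p = 0.000947). texAM was 0.936 times exAM, with an interval of 0.608 to 1.44 and an adjusted p of 0.801, so a difference inside that interval was not detectable, and its sign turned when libraries were scaled by size alone. Against HostAM texAM was 3.13-fold higher, with an adjusted p of 0.0507, just outside the threshold, and it passed under 4 of 16 alternatives (0.00187 to 0.267).

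Syt11, a synaptotagmin that does not bind calcium and acts in vesicle traffic (ENSMUSG00000068923, chromosome 3, 88744700 to 88775164, minus strand), was highest in texAM. The libraries gave 9.29 and 11.3 CPM in tAM, 15.9 and 16.3 CPM in HostAM, 29.5 and 30.6 CPM in texAM, and 20.2 and 25.9 CPM in exAM. No group overlapped another. The difference of exAM from HostAM was 1.43-fold (interval 0.964 to 2.13) and did not pass (adjusted p = 0.126), nor did that of texAM from exAM, 1.30-fold higher in texAM (interval 0.880 to 1.92, adjusted p = 0.249). texAM was 1.87-fold higher than HostAM, with an adjusted p of 0.170.

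For Fam117a (ENSMUSG00000038893, chromosome 11, 95337018 to 95381872, plus strand) the group that stood apart was tAM. Its libraries had 1.86 and 0.878 CPM, from 16 and 7 counts, against 12.1 and 7.60 CPM in HostAM, 9.40 and 12.4 CPM in texAM, and 12.2 and 9.42 CPM in exAM. The libraries of the last 3 groups overlapped one another. exAM was 1.09-fold higher than HostAM (interval 0.552 to 2.17, adjusted p = 0.832), and texAM was 1.11-fold higher than HostAM (interval 0.562 to 2.17, adjusted p = 0.944). Neither sign held under all 16 alternatives. The log2 change ran from -0.158 to 0.506 for exAM, whose sign turned with scaling by library size alone among others, and from -0.165 to 0.522 for texAM. tAM was 7.10-fold lower than HostAM, which did not pass (adjusted p = 0.0805).

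Lhx2, a LIM-homeodomain transcription factor (ENSMUSG00000000247, chromosome 2, 38339281 to 38369733, plus strand), was the member whose texAM level lay away from culture. It stood at 3.25 and 3.13 CPM in tAM, 0.661 and 1.38 CPM in HostAM, 0.418 and 0.228 CPM in texAM, and 102 and 110 CPM in exAM. The counts behind texAM were 4 and 2, so that its level rests on few reads, and texAM was the lowest group while exAM was the highest. exAM was 103-fold higher than HostAM (interval 60.4 to 175, adjusted p = 4.33e-07), and texAM was 310-fold lower than exAM (adjusted p = 2.93e-07). The 3.01-fold lower level in texAM than in HostAM did not pass (adjusted p = 0.264).

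Compared per kilobase of the longest GENCODE M21 transcript, the order of levels in exAM was Cd93 at 126 ± 37.6 CPM per kilobase (SD, n = 2), Myo1d at 82.4 ± 1.87, Lhx2 at 37.3 ± 1.88 and Arap2 at 15.3 ± 1.20. Fam117a at 4.66 ± 0.842 and Syt11 at 4.60 ± 0.803 CPM per kilobase did not differ beyond their spread, and Itpr3 (2.63 ± 0.144) and Gpd1 (0.198 ± 0.0255) were lowest. In texAM the order was Cd93 (18.7 ± 1.64), Gpd1 (13.3 ± 3.23), Syt11 (5.99 ± 0.144), Fam117a (4.71 ± 0.927), Arap2 (2.69 ± 0.718), Itpr3 (2.46 ± 0.0422), Myo1d (1.61 ± 0.144) and Lhx2 (0.114 ± 0.0472). Fam117a and Arap2 differed by more than their spread there, and Arap2 and Itpr3 did not. Myo1d and Lhx2, next to Cd93 in the order of culture, were the lowest pair in transplanted expanded cells.

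The remaining comparisons share libraries with the choice of members, and their counts are given for completeness. In texAM against HostAM 1 of 8 members was called (Arap2), higher in texAM. Of all tested genes 0.33% were called there (0.248% higher, 0.0825% lower). An unadjusted edgeR p under 0.05 was found for 6 of 8 members and for 1914 of the 14537 tested genes. In tAM against HostAM edgeR called 0 of 8 members, where 0.0413% of tested genes were called (0.0206% in each direction). Of the members 5 had an unadjusted edgeR p under 0.05, as had 1457 of the 14537 tested genes. The DESeq2 Wald test called 2 members, Myo1d and Fam117a, among 178 genes in all. In texAM against exAM 5 of 8 members were called (43.7% of all tested genes), Gpd1 higher (23.2%) and Arap2, Myo1d, Cd93 and Lhx2 lower (20.5%). In exAM against tAM 8 of 8 were called (44.7% of all tested genes), 7 higher (21.5%) and Gpd1 lower (23.2%), and nothing is read from this, since the tAM libraries entered the choice.

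Where texAM lay between lung and culture was expressed as a share of the log2 CPM distance from HostAM (0%) to exAM (100%), for the 6 members called in that comparison. Itpr3 was at 94.5% ± 1.43 (SD of the 2 texAM libraries), Arap2 at 48.3% ± 7.92, Cd93 at 25% ± 3.49, Gpd1 at 11.3% ± 5.62, Myo1d at 8.20% ± 2.04 and Lhx2 at -17.3% ± 5.32. Taking the difference of texAM from tAM over the same distance, so that no library entered both terms, gave 107% for Itpr3, 61.7% for Arap2, 28.9% for Myo1d, 28.6% for Cd93, 21.3% for Gpd1 and -40.6% for Lhx2. The SDs cover the texAM libraries only. Over 12 alternatives the share from HostAM ran from 90.1% to 108% for Itpr3, from 42.7% to 53.8% for Arap2 and from 22.6% to 27.5% for Cd93. In the second form that of Itpr3 ran from 98.8% to 121%. The share from HostAM was 1.33% for Myo1d without HostAM replicate 1 and 13.9% without HostAM replicate 2. That of Gpd1 was 7.35% without texAM replicate 1 and 15.3% without texAM replicate 2. Lhx2 was at -25.4% without HostAM replicate 1 and at -10.2% without HostAM replicate 2. These shares are descriptions with no test, and they rest on members picked for the numerator of the second form.

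**Figure D3:**
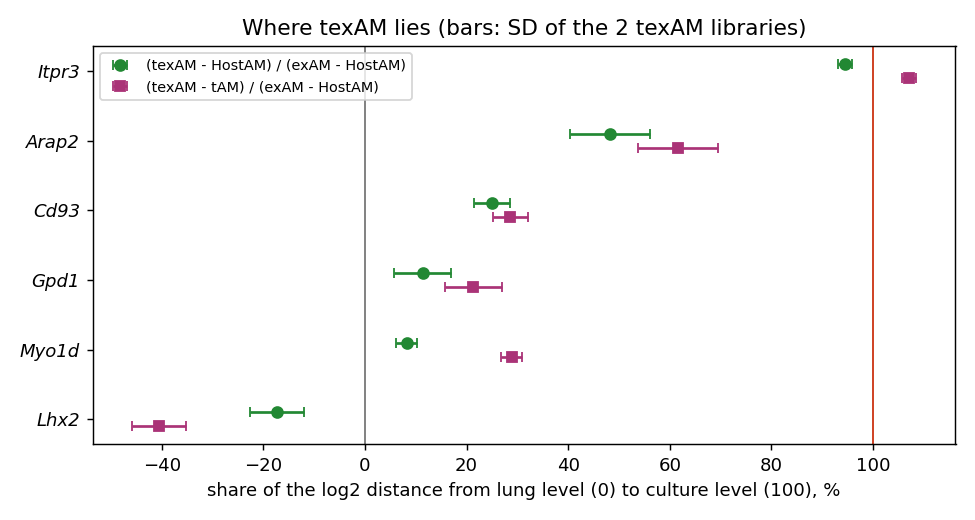
Place of texAM on the log2 CPM scale from the lung level (0%) to the culture level (100%) for the 6 genes called in exAM against HostAM. Circles use HostAM as the lung level, squares use the texAM minus tAM difference, and bars are the SD of the 2 texAM libraries. Itpr3 sits near 100%, Arap2 near the middle, Cd93, Gpd1 and Myo1d nearer to 0%, and Lhx2 below 0%.

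Markers of other cells were read in the same libraries, since sorted bulk samples can hold them, and fewer cells of a type and less RNA per cell cannot be told apart. The summed level of 14 T, NK and B cell genes was 176 to 221 CPM in texAM, 52.7 to 117 CPM in tAM, 25.9 to 82.5 CPM in HostAM and 1.39 to 2.74 CPM in exAM. The texAM libraries were thus higher than the other lung libraries for this list as well as for Arap2, Cd93, Itpr3 and Syt11. Among its T cell genes were Cd3e, at 82.1 and 60.8 CPM in texAM against 26.7 and 56.9 CPM in tAM, and Cd4, at 80.2 and 62.6 CPM against 14.7 and 32.7 CPM. Cd4 was the 1 gene of the list called higher in texAM than in HostAM (edgeR adjusted p = 0.0307), and none was called between texAM and tAM. Not every gene of the list followed: Cd8a was at 1.46 and 2.17 CPM in texAM and 2.44 and 1.63 CPM in tAM, and was highest in HostAM replicate 2 at 17.2 CPM, as was Nkg7 at 12.9 CPM. In exAM, where Arap2 and Cd93 were higher than in texAM, 10 of the 14 genes had 0 counts, among them Cd3d, Cd3e, Cd3g and Trbc2. The part of lymphocyte RNA in the texAM levels was not tested.

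Cd93 is also known from endothelial cells. The sum of 13 endothelial genes was 252 to 254 CPM in texAM, 243 to 244 CPM in tAM and 275 to 327 CPM in HostAM. It was nearly all Vwf, at 245 and 242 CPM in texAM and 241 and 239.6 CPM in tAM. Vwf was highest in HostAM, at 324 and 274 CPM, and stood at 208 and 219 CPM in exAM. Pecam1 was at 5.85 and 7.53 CPM in texAM, 1.16 and 3.39 CPM in tAM, and 0.992 and 0.576 CPM in HostAM, and Esam was at 0.731 and 2.62 CPM in texAM and 0.232 and 0 CPM in tAM. Both genes were thus higher in both texAM libraries than in the other lung libraries, as Cd93 was. Vwf was not, and neither was Egfl7, at 0.940 and 0.114 CPM in texAM against 1.43 and 0 CPM in HostAM. Cdh5, Cldn5, Clec14a, Emcn, Ramp2, Tek and Tie1 had 0 counts in all 3 lung groups. In exAM Cdh5 was at 28.6 and 17.8 CPM and Lyve1 at 15.8 and 18.4 CPM, while Cldn5, Clec14a, Emcn, Ramp2, Tek and Tie1 had 0 counts. The 18 epithelial genes summed to 525 to 663 CPM in texAM, 539 to 572 CPM in tAM and 720 to 791 CPM in HostAM. The 12 genes of monocytes and interstitial macrophages summed to 735 to 796 CPM in texAM, 660 to 713 CPM in tAM and 780 to 824 CPM in HostAM, and to 1797 to 2120 CPM in exAM. The 10 stromal genes summed to at most 18.3 CPM in texAM. Dendritic cell genes summed to 128 to 180 CPM in texAM, 133 to 137 CPM in tAM and 129 to 236 CPM in HostAM. In the same order, granulocyte genes summed to 184 to 317, 142 to 173 and 181 to 197 CPM. Red cell and platelet genes summed to 61.4 to 87.2, 53.0 to 57.7 and 107 to 160 CPM. Of the granulocyte list, S100a9 was at 64.6 and 25.8 CPM in texAM and at most 14.2 CPM in the other lung libraries. S100a8 was at 41.2 and 21.7 CPM against at most 17.9 CPM. Csf3r overlapped, at 130 and 80.2 CPM in texAM and 139 and 114 CPM in HostAM. The part of these lists in the members' levels was not tested.

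**Figure D4:**
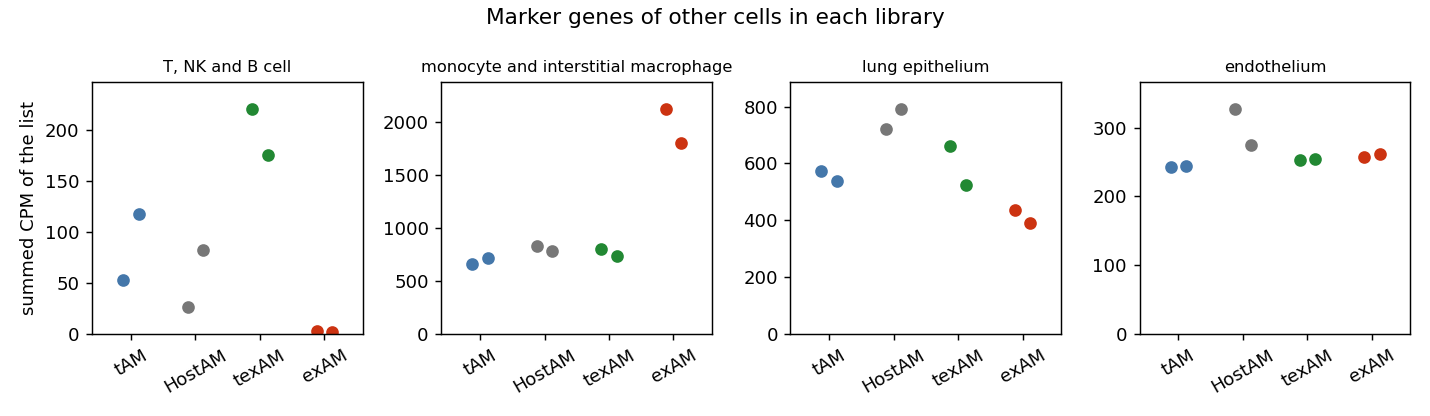
Summed CPM of 4 marker lists in each library (points, 2 per group, axes from 0). The texAM libraries are the highest for T, NK and B cell genes, at 176 to 221 CPM, and exAM is near 0 there, while exAM is the highest for monocyte and interstitial macrophage genes.

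The relatives of each member were listed by family and pathway. Together these lists held 106 tested genes besides the 8. edgeR called 60 of them in exAM against HostAM, where 44.1% of all tested genes were called. It called 0 in texAM against HostAM, where 0.33% of all tested genes were called. There 23 of the 106 had an unadjusted edgeR p under 0.05, as had 1914 of the 14537 tested genes. The DESeq2 Wald test called 3 of them (Agap1, Aqp9 and Atp2a3), and 385 genes in all. In each list below, the median log2 change of exAM from HostAM is set beside -0.08, the median over all tested genes, and includes the member. The counts that rose and fell stand beside 20.9% and 23.3% of all tested genes, and nothing particular to a list is read from them.

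Among Arf GTPase regulators, 10 of 30 tested genes rose and 8 fell in exAM relative to HostAM (median 0.07). Of the 2 other ARAP genes, Arap3 was at 43.0 ± 2.67 CPM in exAM and 2.46 ± 2.70 CPM in HostAM (adjusted p = 0.00100), and its texAM level was 3.22 ± 1.74 CPM. Arap1 had 120 ± 26.1 CPM in exAM against 136 ± 24.7 CPM in HostAM (adjusted p = 0.499). The largest other changes were those of Acap1, which fell from 32.1 ± 11.1 CPM to 0.489 ± 0.0363 CPM in exAM, Agap2, which fell from 32.8 ± 5.70 CPM to 1.44 ± 0.583 CPM, and Arfgap3, which rose from 29.6 ± 3.15 CPM to 91.2 ± 6.56 CPM. All 3 code for GTPase-activating proteins of Arf and had texAM libraries that overlapped those of HostAM, at 48.4 ± 14.4, 35.3 ± 1.80 and 28.9 ± 1.97 CPM.

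Of 7 tested class I myosins 3 rose and 1 fell in exAM (median -0.06). Myo1d changed the most. Myo1e rose from 276 ± 10.2 CPM in HostAM to 642 ± 152 CPM in exAM (adjusted p = 8.12e-05), and stood at 269 ± 23.5 CPM in texAM. Myo1f rose from 540 ± 10.9 CPM to 692 ± 72.8 CPM and Myo1g fell from 451 ± 7.63 CPM to 267 ± 41.1 CPM, while Myo1c was at 194 ± 4.05 CPM in HostAM and 186 ± 6.75 CPM in exAM. Myo1h was at or below 1.98 CPM in every group mean, and Myo1a was left out for low counts.

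In the list of IP3 and store calcium genes 8 of 28 tested genes rose in exAM and 10 fell (median 0.07). Itpr1 fell from 73.8 ± 0.274 CPM in HostAM to 47.1 ± 3.06 CPM in exAM (adjusted p = 0.00411) and was at 82.2 ± 1.98 CPM in texAM, and Itpr2 was at 483 ± 21.1, 476 ± 32.4 and 405 ± 18.8 CPM in HostAM, exAM and texAM. Atp2b4, a plasma membrane calcium pump, fell from 118 ± 4.42 CPM to 0.154 ± 0.218 CPM in exAM, the calcium channel Ryr1 fell from 10.8 ± 1.66 CPM to 2.19 ± 0.182 CPM, and Ahcyl1, which binds IP3 receptors, rose from 162 ± 16.9 CPM to 453 ± 21.3 CPM. In texAM these 3 stood at 79.2 ± 5.15, 7.34 ± 0.543 and 167 ± 2.78 CPM.

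Synaptotagmins and their relatives were mostly low, with 13 of 25 tested, 3 higher and 3 lower in exAM and a median of -0.92. Esyt2, a tether of the endoplasmic reticulum to the plasma membrane, rose from 152 ± 29.0 CPM in HostAM to 549 ± 7.20 CPM in exAM and was at 160 ± 5.43 CPM in texAM. Syt17 was at 5.25 ± 1.31 CPM in exAM and at most 0.228 CPM in the mean of any lung group (adjusted p = 0.0267). Syt5 and Syt3 passed narrowly (adjusted p = 0.0494 and 0.0354), Syt3 with 7.96 ± 9.47 CPM in HostAM. Syt2, Syt7 and Syt8 did not pass.

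For the receptor and the enzyme the relatives also differed from the member. Thbd, which encodes thrombomodulin of the CD93 family, was at 65.7 ± 4.91 CPM in HostAM, 75.2 ± 15.0 CPM in texAM and 84.7 ± 14.3 CPM in exAM, with no call against HostAM, and Clec14a and Cd248 had 0 counts in all 8 libraries. Msn, the cortical linker moesin, rose from 695 ± 73.2 CPM to 977 ± 101 CPM in exAM, and 2 of 4 tested genes of that list were higher. Of 21 glycerol 3-phosphate and triglyceride genes 6 rose and 5 fell in exAM (median -0.02). Gpd2, the mitochondrial counterpart of Gpd1, rose from 152 ± 6.42 CPM to 265 ± 13.7 CPM (adjusted p = 0.000295), and Gpd1l was at 123 ± 3.07 and 111 ± 3.09 CPM (adjusted p = 0.447). Dgat2, which makes triglyceride, fell from 80.7 ± 20.5 CPM to 0.729 ± 0.0608 CPM in exAM and was at 62.7 ± 13.7 CPM in texAM. The glycerol channel gene Aqp9 rose from 5.69 ± 0.254 CPM to 57.5 ± 39.3 CPM in exAM, with 16.2 ± 2.25 CPM in texAM, and Agpat5 rose from 25.6 ± 2.86 CPM to 73.8 ± 12 CPM.

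Among LIM-homeodomain genes Lhx2 was the only 1 with enough counts to be tested, and of 8 tested genes of the wider list 2 were higher and 3 lower in exAM (median -0.51). The cofactor gene Ssbp3 fell from 34.2 ± 0.0648 CPM in HostAM to 9.88 ± 0.876 CPM in exAM, Ssbp4 from 51.1 ± 19.6 CPM to 24.6 ± 1.28 CPM and Lmo4 from 179 ± 7.90 CPM to 112 ± 16.8 CPM. Fam117b, the paralog of Fam117a, rose from 202 ± 0.662 CPM to 264 ± 18.3 CPM in exAM and was at 183 ± 6.35 CPM in texAM and 195 ± 2.04 CPM in tAM. Glcci1 fell from 3.61 ± 0.429 CPM to 0.875 ± 0.510 CPM (adjusted p = 0.0381).

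Genes with the most similar pattern were found by Pearson's r of log2 CPM over the 8 libraries, 2 per member. All points share these libraries. The exAM pair sets much of each r for Arap2, Myo1d, Cd93, Gpd1 and Lhx2, where it lies far from the lung libraries. For Itpr3 exAM and texAM lay close together, Syt11 was highest in texAM, and for Fam117a tAM stood apart. Nearest to Arap2 were Gabpb1 (r = 0.988), with group means of 31.1 CPM in tAM, 32.3 in HostAM, 48.3 in texAM and 64.4 in exAM, and Ndufs1 (r = 0.986). Cd93 was followed by Mtmr2 (r = 0.995) and H2-M2 (r = 0.991), the latter at 11.8, 10.1, 18.9 and 146 CPM in the same order of groups. For Myo1d they were Slc6a8 (r = 0.998), a creatine transporter gene at 5.66, 12.1, 13.3 and 477 CPM, and Lrrc58 (r = 0.996), and for Gpd1 Sap25 (r = 0.996) and Stat5a (r = 0.996). Itpr3 was most like Rttn (r = 0.958) and E2f5 (r = 0.948), the latter at 4.16, 3.44, 6.93 and 7.30 CPM. The remaining members had Tbc1d8b (r = 0.933) and Lss (r = 0.933) for Syt11, Zmynd19 (r = 0.922) and Fhl3 (r = 0.909) for Fam117a, and Gtf3c1 (r = 0.991) and Lap3 (r = 0.989) for Lhx2.

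Whether counting used the strand is not given in the sources used here, so reads of an overlapping antisense gene could be counted with a member. The annotation places antisense genes over Itpr3, Fam117a, Gpd1 and Lhx2. Those found in the table had at most 12 counts in any library (over Gpd1, in HostAM).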

How the data were processed

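RNA was measured in 8 libraries. The deposited values were whole-number counts of reads per gene. The submitters' processing notes name Bowtie, HTSeq 0.6.1, R 3.3 and mm10 (GRCm38), and further parameters are not given in the sources used here. RNA was amplified by single-primer isothermal amplification and PCR, per the labels' protocols, so reads are not independent molecules. All 8 columns were matched to samples by name, with texAM abbreviated in the column names. Positions and transcript lengths came from GENCODE M21 (GRCm38).

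Counts were analysed with edgeR 4.0.16, limma 3.58.1 and R 4.3.3. filterByExpr (minimum 10 counts) left 14537 genes, and TMM scaled the libraries. One quasi-likelihood model with robust dispersions (biological coefficient of variation 0.22) was fitted to all 8 libraries, with 4 residual degrees of freedom. P-values were adjusted by Benjamini-Hochberg over all tested genes and called under 0.05. Standard errors were derived from the F statistic. CPM uses the TMM-scaled library size, and log2 CPM a prior count of 2. The code was tested on simulated data.

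The members and gene lists were chosen with earlier results of these data known. Named genes were the members, 2 nearest genes each with a mean of at least 5 CPM, paralogs, and up to 3 other genes per list with the largest called change in exAM against HostAM, with a mean of 10 CPM or more in 1 of these groups and libraries that did not overlap. Replicates differed by more than counting noise in every group, and same-numbered libraries did not deviate together. The alternatives were other filters, scalings and tests (DESeq2 1.42.0), the replicate number as a block, fits of 4 libraries, and each library left out.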

Additional observations from a re-analysis of the deposited data

How the results depend on the processing

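The number of members called was 6 in exAM against HostAM, 5 in texAM against exAM and 8 in exAM against tAM under every alternative run, leave-one-out fits included, and no member's called change reversed. In texAM against HostAM the number of members called moved from 1 to 3 with no filter, with a minimum of 50 counts and with the DESeq2 Wald test, to 2 with library size alone and to 0 in a fit of the 4 libraries, and ran from 0 to 2 as each library was left out. In tAM against HostAM it moved from 0 to 3 with no filter and to 2 with the DESeq2 Wald test, and ran from 0 to 1 as each library was left out. Counts over all genes moved most where few were called. In texAM against tAM the 1 gene called became 238 with no filter, 73 with the DESeq2 Wald test, 2 in a fit of the 4 libraries (Arap2 not among them), and 0 to 5 as each library was left out. In texAM against HostAM the 48 genes became 694, 106 (minimum of 50 counts) and 385 (DESeq2 Wald), and 1 to 90 as each library was left out. In tAM against HostAM the 6 genes became 425, 44 and 178, and 0 to 26. Genes called the same way in texAM against tAM and exAM against HostAM, 1 in all, became 101 with no filter, 34 with the DESeq2 Wald test and 0 to 3 as each library was left out. With the replicate number as a block, texAM against tAM had 0 genes called, the shared count was 0, texAM against HostAM had 29 genes, and no other count left its range of 1.5 times. Same-numbered libraries of different groups correlated at -0.06 to 0.01, so the numbers did not pair the pools. The cause of these shifts was not tested. Scaling by library size alone moved the median log2 change of exAM from HostAM from -0.08 to -0.26 and the part of its calls that lay above HostAM from 47.3% to 35.2%, and the directions of the members' calls held. Likewise the part above exAM in texAM against exAM went from 53.1% to 68.1%, and that above tAM in exAM against tAM from 48.0% to 34.5%. A group left with 1 library was assumed to vary like the others. Lhx2 could not be tested in the fit of the texAM and HostAM libraries alone, since it missed the filter there. Levels from under 10 counts, as for Lhx2 in texAM and Gpd1 in exAM, are limited by depth.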
